A study of Homo sapiens with 3 samples.

Results

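The S100, galectin and annexin genes described here are 10 of the 32732 genes measured in all 3 libraries: S100A4, S100A6, S100A10, S100A11, S100A13, S100A16, LGALS1, LGALS3, ANXA1 and ANXA2. They were listed by name after their levels on days 0, 3 and 5 had been seen in these same libraries, so they were selected on the CPM and shares of cells described below, and those values support nothing further. Each of the 10 names matched 1 gene with the same Ensembl identifier in the 3 gene tables, and all 10 reached 10 CPM (counts of unique molecular identifiers, UMIs, in every 1000000 of a library) in at least 1 library, 6 of them in every library.

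Single-cell RNA sequencing was carried out on an established line of human fibroblasts, BJ, and on cells labelled FiN and described as induced neuron cells. Each group was 1 library: BJ cells at day 0, FiN cells at day 3 and FiN cells at day 5, all labelled wild type (WT), with reprogramming given as the treatment in all 3. The treatment text, which is the same for the 3 groups, starts from BJ cells on poly-D-lysine in DMEM with 10% fetal bovine serum at 80% density. These were moved to an induction medium and from day 2 to a maturation medium, both with 10 µM forskolin, an activator of adenylyl cyclase, until day 5. Exposure of the day 0 cells to forskolin was not given in the sources used here. Suspensions of nuclei are named in the protocols of days 0 and 3, and dissociated cells, about 10000, in that of day 5, so preparation and day cannot be told apart between day 5 and the others.

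S100 proteins are small calcium-binding proteins with paired EF-hand loops, which on binding calcium expose a surface that docks to partner proteins. Annexins bind acidic membrane lipids when calcium rises, and several work as complexes with an S100 dimer. Galectins bind galactose-containing sugars on glycoproteins such as integrins and fibronectin, both outside and inside the cell. Cultured fibroblasts and other mesenchymal cells are known for strong expression of all 3 families, whereas neurons rely largely on other calcium sensors.

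After filtering, 16773 cells remained at day 0, 11454 at day 3 and 9219 at day 5, with a median of 14039, 1324 and 4374 UMIs (1 per captured RNA molecule) per cell. Mitochondrial genes took 6.45%, 0.745% and 5.01% of UMIs, ribosomal protein genes 17.0%, 4.29% and 2.13%, and the nuclear RNA MALAT1 3.14%, 21.6% and 7.35%, so days 0 and 3 also differed in make-up. Pairs of libraries shared 27 to 63 cell barcodes. All 14 fibroblast markers listed were at 10 CPM or more at days 0 and 3, with a summed level of 6530 and 8827 CPM, against 6 of 14 and 445 CPM at day 5. For the 14 neuronal markers the sums were 94.3, 95.3 and 4550 CPM; DCX, a protein of young neurons' microtubules, had no UMI at day 0 or day 3, so the neuronal label of the day 3 cells was not borne out by these markers. The 10 neural progenitor markers summed to 147, 22.8 and 2557 CPM. The FiN cells come from BJ cells per the treatment text, and whether those of day 5 did was not tested. With 1 library per group no test could be run, and all intervals, given as 95%, cover counting error only.

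Levels are given as CPM, computed from UMIs summed over the cells of a library. UMIs count molecules and were not divided by gene length. A gene is called higher or lower between libraries when its CPM differed by at least 2 times, the larger value was at least 10 CPM and the exact Poisson intervals did not overlap. The 10 genes together took 2.00% of all UMIs at day 0, 0.353% at day 3 and 0.024% at day 5. The 6 S100 genes summed to 12538, 2173 and 90.9 CPM, the 2 galectins to 5954, 1143 and 6.30 CPM, and the 2 annexins to 1478, 217 and 143 CPM. All 3 families thus stood highest at day 0 and lowest at day 5, and the annexin sum differed least between days 3 and 5.

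Upstream sequences of 3 genes are shown because S100A4 and S100A6, neighbours on chromosome 1, had opposite orders of days 0 and 3, and because ANXA2 kept the highest level of the 10 genes at day 5. Each is the 150 bases before the transcription start in RefSeq (GRCh38.p14), 5′ to 3′ along the gene, with matches to the searched motifs in capitals: chr1:153545807-153545956 on the minus strand for S100A4, chr1:153535992-153536141 on the minus strand for S100A6 and chr15:60397987-60398136 on the minus strand for ANXA2.
S100A4: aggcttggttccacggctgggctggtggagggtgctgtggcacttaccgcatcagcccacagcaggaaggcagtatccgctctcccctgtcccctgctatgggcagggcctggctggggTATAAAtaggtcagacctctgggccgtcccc
S100A6: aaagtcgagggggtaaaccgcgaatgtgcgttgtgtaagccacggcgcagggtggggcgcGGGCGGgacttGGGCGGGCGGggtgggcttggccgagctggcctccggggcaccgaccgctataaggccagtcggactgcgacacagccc
ANXA2: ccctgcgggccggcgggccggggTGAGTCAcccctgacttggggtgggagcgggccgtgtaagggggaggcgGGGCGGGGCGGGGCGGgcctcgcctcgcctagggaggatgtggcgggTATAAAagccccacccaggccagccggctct
The S100A4 window held TATAAA beginning 31 bases before the start and no GGGCGG. S100A6 held GGGCGG at 3 places, of which the last 2 overlap, beginning 90, 79 and 75 bases before the start, and no TATAAA. ANXA2 held both, with TATAAA beginning at 31 bases and GGGCGG at 78, 73 and 68 bases before the start, and in addition 1 match to TGANTCA, the motif of AP-1, beginning at 127 bases.

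The search covered both strands of windows from 250 bases before to 50 after each start, with overlapping matches counted, for 5 motifs. RefSeq windows were matched for 9 of the 10 genes, with 12 windows in all, and LGALS1 was not matched. TATAAA was in 4 of the 12 windows (S100A4, 1 of the S100A13 windows, ANXA1 and ANXA2), against 11.5% of the 35116 windows of all genes. GGGCGG was in 7 of the 12, against 45.0%, and CCAAT in 3 of the 12, against 34.6%. TGANTCA was in 1 of 12 windows, against 7.71%, and TGACGTCA, the full cAMP response element, in 0 of 12, against 1.85%. These are matches of letters in short windows, and no binding was measured.

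Among the S100 genes, S100A4, which binds non-muscle myosin and is widely used as a fibroblast marker, stood at 106 CPM (105 to 107) at day 0, 912 (898 to 926) at day 3 and 1.77 (1.42 to 2.17) at day 5. It was the only one of the 10 genes with its highest level at day 3, 8.60-fold above day 0 (log2 ratio 3.10), and it was 516-fold lower at day 5 than at day 3. S100A6, or calcyclin, a partner of the ubiquitin-pathway protein CACYBP, stood at 8270 CPM (8258 to 8281), 879.5 (866 to 893) and 28.9 (27.4 to 30.4). Its level was thus 9.40-fold lower at day 3 than at day 0 and 30.4-fold lower again at day 5.

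S100A10, the S100 protein that pairs with annexin A2, stood at 1252 CPM (1248 to 1257), 101 (96.5 to 106) and 23.1 (21.8 to 24.5), and was 54.2-fold lower at day 5 than at day 0. S100A11, which pairs with annexin A1, stood at 2037 CPM (2032 to 2043), 186 (179.8 to 192) and 18.2 (17.0 to 19.4), 112-fold lower at day 5 than at day 0. S100A13, which takes part in the release of FGF1 and interleukin-1 alpha without a signal peptide, stood at 459, 76.0 and 17.8 CPM. It had the smallest ratio of the S100 genes between days 5 and 0, 25.8-fold. S100A16 stood at 413, 18.8 and 1.16 CPM, with 59 UMIs left at day 5, and was 357-fold lower at day 5 than at day 0. In these 4 genes no 2 libraries had overlapping intervals, and the order was day 0, day 3, day 5.

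Both galectins had the same order. LGALS1, or galectin-1, a secreted lectin that binds integrins and laminin, stood at 5644 CPM (5635 to 5654) at day 0, 1076 (1061 to 1091) at day 3 and 1.94 (1.58 to 2.37) at day 5. Its 2903-fold lower level at day 5 than at day 0 (log2 ratio −11.50, −11.80 to −11.22) was the largest difference of the 10 genes. LGALS3, or galectin-3, which also works inside the cell at damaged endosomes, stood at 309.9 CPM (308 to 312), 66.7 (63.1 to 70.5) and 4.36 (3.80 to 4.97). The fold difference between days 5 and 0 was 71.1 for LGALS3.

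The 2 annexins had the same order of days. ANXA1, a membrane-binding protein that limits inflammation through formyl peptide receptors, stood at 407 CPM (404 to 409), 47.0 (43.9 to 50.2) and 29.8 (28.3 to 31.3). ANXA2, which with S100A10 forms a complex at the cell surface that gathers tissue plasminogen activator and plasminogen, stood at 1071 CPM (1067 to 1075), 169.9 (164 to 176) and 113 (110.4 to 116). Between days 3 and 0 they were 8.65-fold and 6.31-fold lower. Between days 5 and 3 their log2 ratios were −0.66 (−0.78 to −0.54) and −0.58 (−0.65 to −0.52), short of the 2-fold limit, so neither was called.

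**Figure D1:**
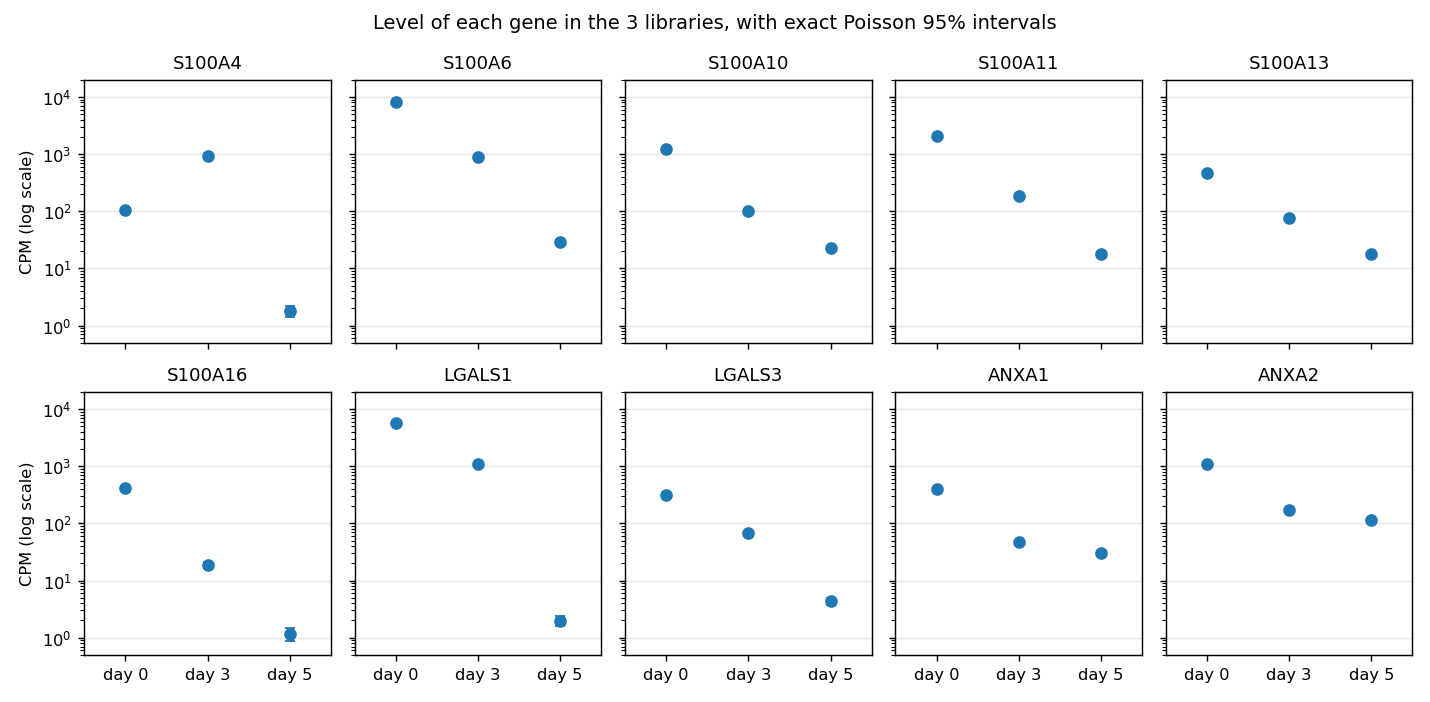
Level of each of the 10 genes (y axis, CPM, log scale) in the day 0, day 3 and day 5 libraries (x axis, 1 library each), with exact Poisson 95% intervals as bars, most of them smaller than the points. S100A4 is the only gene highest at day 3, at 912 CPM, and ANXA2 has the highest day 5 level, at 113 CPM.

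Between days 3 and 0, 1 of the 10 genes was called higher and 9 lower, where 37.6% of the 10431 genes at 10 CPM or more were called higher and 19.1% lower. Between days 5 and 3, none was higher, 8 were lower and 2 were neither, where 36.5% of 12623 genes were called higher and 28.7% lower. Between days 5 and 0, none was higher and 10 were lower, where 49.1% of 12084 genes were called higher and 26.0% lower. The 3 comparisons share libraries, and since these contrasts chose the genes, nothing is read from the counts. Median log2 ratios over the 10 genes were −2.88, −3.65 and −6.03, against 0.49, 0.16 and 0.93 over all genes at 10 CPM or more.

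Other scalings moved the whole distribution of day 3 over day 0 by up to −1.20 on the log2 scale (TMM factors), and that of day 5 over day 0 by −1.13. The calls of all 10 genes had the same direction under each scaling tried. Each scaling applies 1 factor to all genes of a library, so positions relative to the shifted distribution could not change. Ribosomal protein genes, short and highly expressed like most of the 10, were called lower in 74 of 83 cases between days 3 and 0, 35 of 82 between days 5 and 3 and 79 of 83 between days 5 and 0. Their median log2 ratios were −2.07, −0.89 and −2.97, of which −0.89 is short of the 2-fold limit. Whether the same source lies behind both was not tested.

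**Figure D2:**
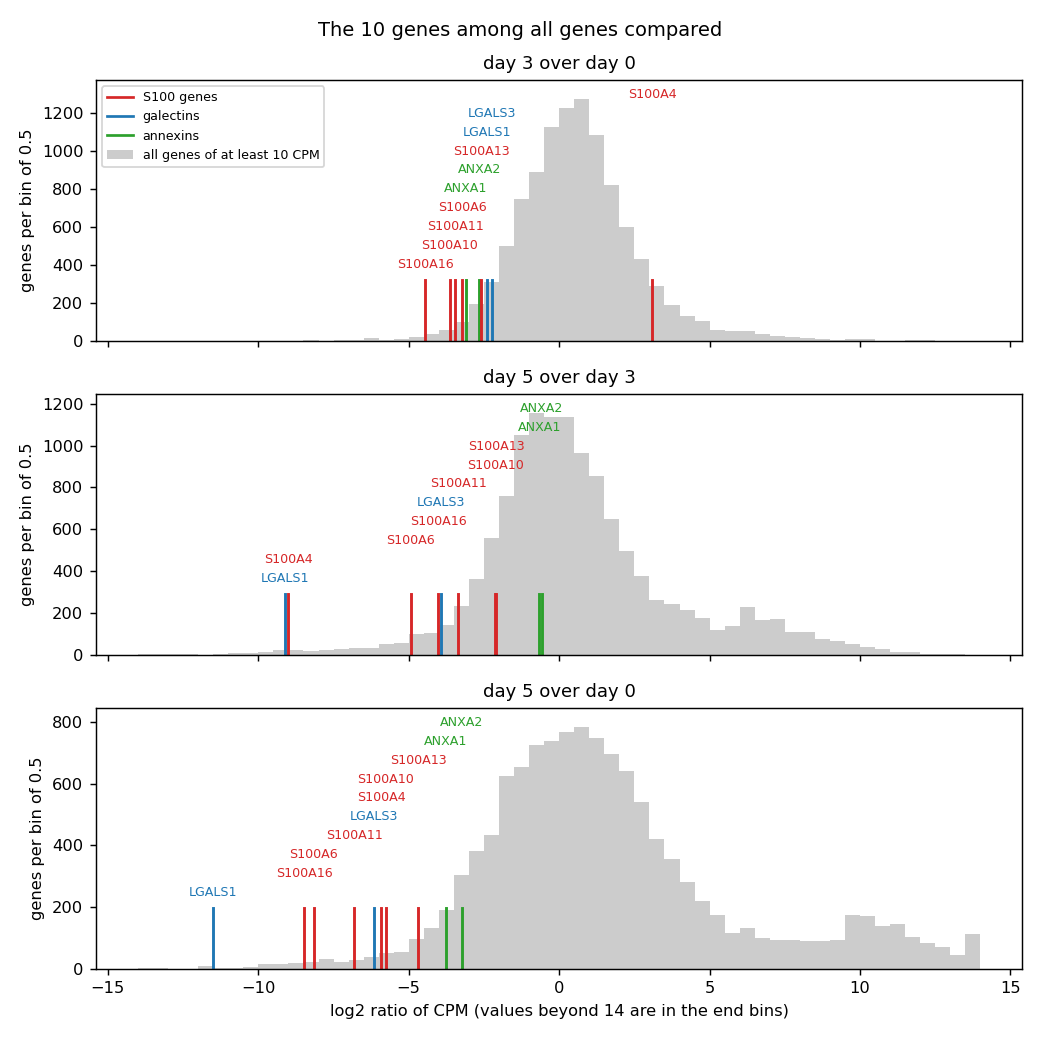
Histograms of the log2 ratio of CPM (x axis, bins of 0.5) for all genes at 10 CPM or more (y axis, number of genes), for the 3 comparisons, with the 10 genes as coloured lines. S100A4 lies at 3.10 in day 3 over day 0 and at −9.01 beside LGALS1 at −9.11 in day 5 over day 3, while ANXA1 (−0.66) and ANXA2 (−0.58) lie near the middle there.

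Shares of cells were compared after thinning every cell to 1000 UMIs, which left out 2391 shallower cells at day 0, 3013 at day 3 and none at day 5. S100A6 was detected in 99.7% of day 0 cells, 55.4% of day 3 cells and 3.43% of day 5 cells, and LGALS1 in 98.3%, 62.8% and 0.228%. S100A4 went the other way between the first 2 libraries, with 12.1%, 55.3% and 0.239%. ANXA2 was found in 67.9%, 16.3% and 11.3% of cells, ANXA1 in 36.7%, 4.53% and 3.47%, and LGALS3 in 29.2%, 6.36% and 0.488%. S100A11 was found in 87.1%, 16.7% and 2.13%, S100A10 in 73.1%, 9.28% and 2.63%, S100A13 in 43.2%, 7.01% and 2.31%, and S100A16 in 36.0%, 1.81% and 0.184%. The orders of the days were those of the CPM. The shares depend on the depth chosen and, at days 0 and 3, also on which cells reach it. At 500 UMIs S100A4 was found in 7.26% of 16773 day 0 cells, and at 2000 UMIs in 19.1% of 11537. At day 5, with 9219 cells at both depths, ANXA2 was found in 5.48% and 20.3%.

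Without thinning, the day 3 cells held a mean of 1.49 UMIs of S100A4 each and the day 0 cells 1.56, in libraries whose median cells had 1324 and 14039 UMIs. S100A4 was detected in 73.2% and 51.9% of these unthinned cells. The day 0 mean pools clusters from 0.293 (cluster 1) to 2.67 (cluster 7) UMIs per cell, and without the 2 shallow clusters of day 0 low in MALAT1 it was 2.41. The UMIs of S100A4 per cell at day 3 were thus near, below or above those of day 0, depending on the day 0 cells used. They were above the 0.293 of cluster 1, whose cells, with a mean of 1251 UMIs, were near the day 3 cells in depth. Between the whole libraries, the 8.60-fold higher CPM at day 3 went with far fewer UMIs of other genes. For the other 9 genes the UMIs per cell were much lower at day 3: S100A6 had 122 at day 0 and 1.44 at day 3, LGALS1 had 82.9 and 1.76, and ANXA2 had 15.7 and 0.278.

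Counted over the 10 genes, a day 0 cell thinned to 1000 UMIs held a median of 6 of them, a day 3 cell 2 and a day 5 cell 0. At least 5 were found in 82.4% of day 0 cells, 4.44% of day 3 cells and no day 5 cell. Of the day 5 cells 76.6% held none, against 5.60% at day 3 and 0.00695% at day 0. At day 0 the variance of the thinned counts was above the mean for all 10 genes, where counting error alone gives about 1 times the mean. It was 3.70, 3.21 and 2.32 times the mean for S100A6, LGALS1 and S100A11, and 1.10 to 1.59 times for the other 7. Those 3 genes also had the highest means, 10.8, 7.62 and 3.16 UMIs per thinned cell. The ratio tends to rise with the mean, so it does not rank the genes by their relative spread between cells.

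**Figure D3:**
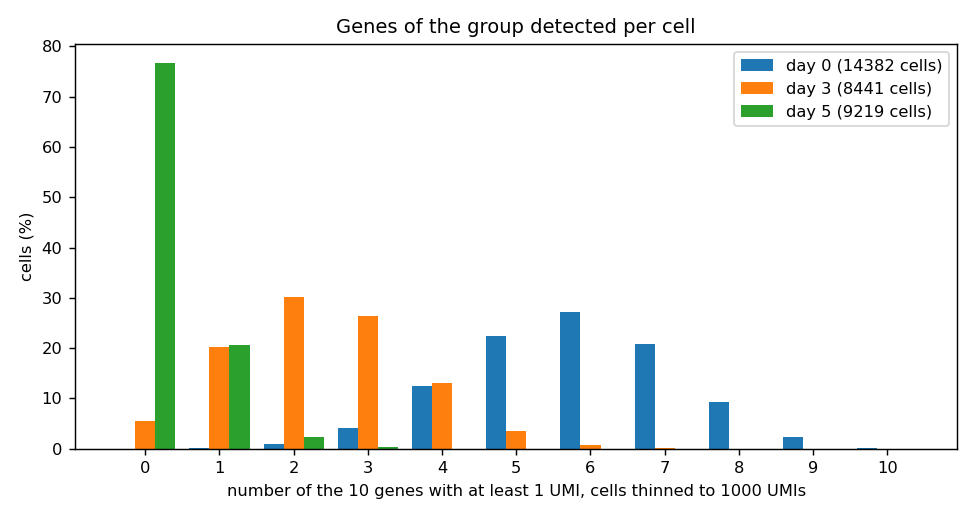
Share of cells (y axis, percent) by the number of the 10 genes with at least 1 UMI (x axis), in cells thinned to 1000 UMIs, with 1 bar colour per day. Day 0 cells peak at 6 genes, day 3 cells at 2, and 76.6% of day 5 cells hold none.

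The UMIs of these genes per cell were next set against the depth of the cell. Cells of each library were split into 4 classes of equal size by total UMIs, and the mean UMIs of a gene per cell in the deepest class were divided by those in the shallowest. At day 3 the deepest class had 3.70 times the total UMIs of the shallowest, and the median gene at 10 CPM or more had 3.63 times (quartiles 2.57 to 4.94). S100A4 had 1.47, 1.58, 1.45 and 1.45 UMIs per cell from the shallowest to the deepest class, a ratio of 0.985 (0.944 to 1.03). Its count per cell was thus level across a range of depth over which most genes scaled with it. S100A6 had a ratio of 1.17, S100A10 and LGALS1 1.38 each, LGALS3 1.46 and ANXA1 1.65, and of all genes 3.39% lay under 1.5.

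S100A11 (1.77), S100A16 (1.81), S100A13 (1.98) and ANXA2 (2.86) scaled more with depth at day 3, ANXA2 the most. MALAT1, which stays in the nucleus, had a ratio of 7.99, the fibroblast receptor gene PDGFRA 4.84, and ribosomal protein genes together 1.53. At day 5, where the depth ratio was 4.02 and the median gene had 4.12, S100A13 had 0.96 (0.8 to 1.15), S100A10 1.44, S100A6 1.48, S100A11 1.59 and ANXA1 1.99. ANXA2 reached 3.12 (2.88 to 3.38) and LGALS3 2.97 (2.00 to 4.52), while the neuronal microtubule gene MAP2 had 4.95. S100A4, S100A16 and LGALS1 had 59 to 99 UMIs in all at day 5, and their ratios (1.72, 1.00 and 1.45) had wide intervals.

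At day 0 the deepest class held 35.2 times the UMIs of the shallowest, and all 10 genes lay below that, from 11.2 (S100A11) to 25.3 (S100A16). The median gene there had 76.3 and MALAT1 294. The shallow cells of day 0 therefore held a larger share of these genes and a smaller share of MALAT1, 0.407% of UMIs in the shallowest class against 3.40% in the deepest.

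**Figure D4:**
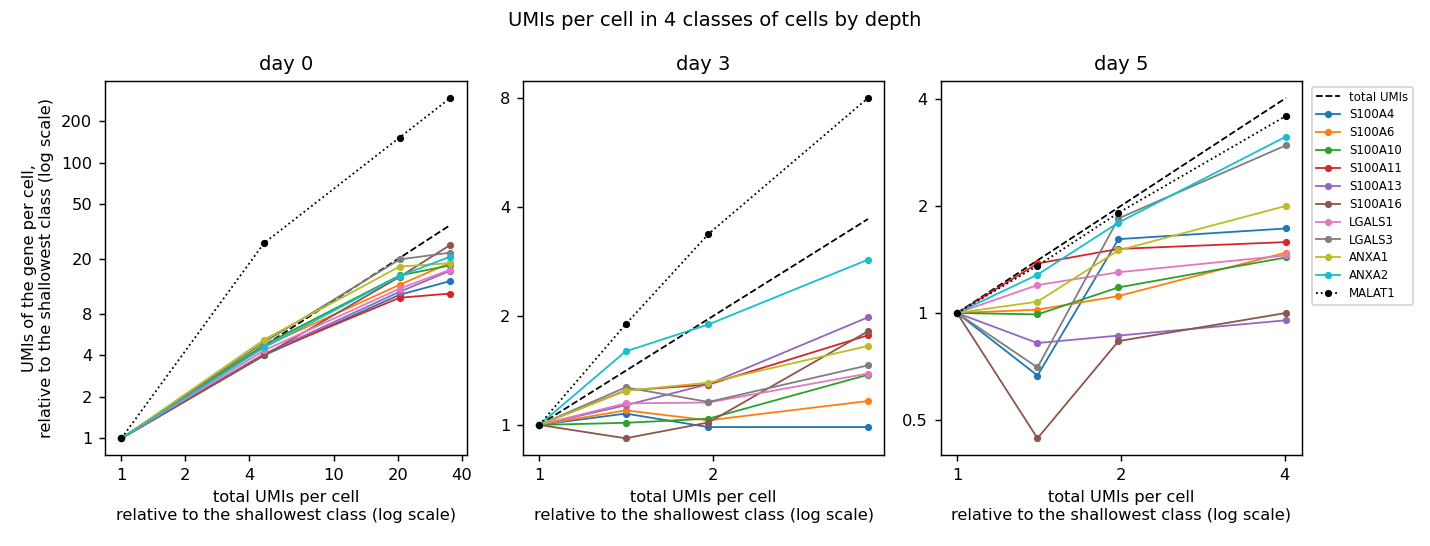
Mean UMIs of each gene per cell (y axis, log scale) in 4 classes of cells by total UMIs (x axis, log scale), both relative to the shallowest class, for days 0, 3 and 5. The dashed line is the total; at day 3 S100A4 stays level, at 0.985 in the deepest class, while ANXA2 reaches 2.86 and MALAT1 7.99.

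The day 5 library was deposited unfiltered, so that barcodes below the cell threshold could be read beside the cells. The 50562 barcodes of 500 to under 1000 UMIs had a median of 753 UMIs, and the 9219 cells a median of 4374. S100A6 had 0.16 UMIs per cell (0.152 to 0.168) and 0.123 per barcode (0.12 to 0.126), so that the barcodes held 77.3% of the cell level. The median gene had 9.06% (quartiles 5.06 to 20.2), total UMIs 13.6%, and 6.13% of genes had 50% or more. Among the S100 genes the percentages ran from 70.6 (S100A10) to 89.9 (S100A16), and for S100A4 and S100A16 the interval of the difference between cells and barcodes included 0.

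ANXA1 had 0.165 UMIs per cell and 0.101 per barcode (61.3%), and LGALS1 0.0107 and 0.00617 (57.5%). ANXA2 and LGALS3 stood further above the barcodes, ANXA2 with 0.626 UMIs per cell (0.61 to 0.642) and 0.256 per barcode (41.0%), LGALS3 with 0.0241 and 0.00659 (27.3%). For comparison, MAP2 in the barcodes had 7.28% of its cell level, MALAT1 4.02%, and the mesenchymal filament gene VIM 76.3%. Shares of barcodes with a UMI followed the same order: S100A6 was found in 13.7% of cells and 11.5% of these barcodes, ANXA2 in 38.8% and 22.3%, LGALS1 in 1.03% and 0.601%, and LGALS3 in 2.27% and 0.633%. The day 5 shares of the S100 genes therefore lie near the level of barcodes not called as cells. The CPM of the 10 genes in these barcodes was 2.02 to 6.63 times that in the cells, against 0.668 times for the median gene; what the barcodes hold was not tested.

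**Figure D5:**
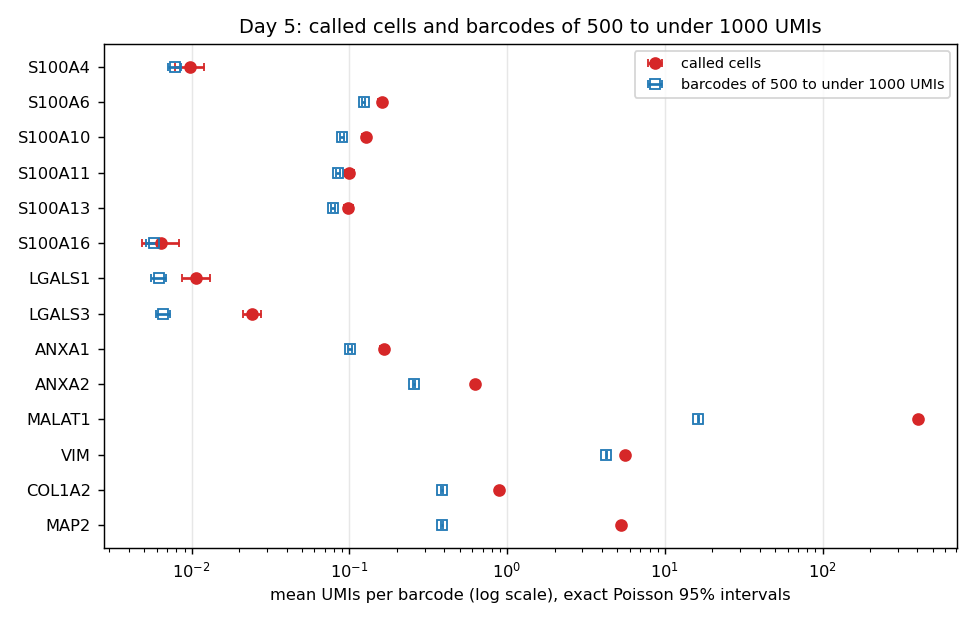
Mean UMIs per barcode (x axis, log scale) for the 10 genes and 4 others in day 5 cells (filled) and in day 5 barcodes of 500 to under 1000 UMIs (open), with exact Poisson 95% intervals. The pairs of points nearly meet for the S100 genes and lie further apart for LGALS3 and ANXA2, and furthest for MALAT1.

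The profile of those barcodes was also subtracted from the day 5 cells at the largest share, 16.8% of a cell's UMIs, that left no gene below 0 beyond counting error. After this step 2849 of 5770 UMIs of ANXA2 remained, 368 of 1517 of ANXA1, 147 of 222 of LGALS3, 149 of 1176 of S100A10 and 65 of 1471 of S100A6. S100A11 and S100A16 were left with 0, S100A4 with 1 of 90, S100A13 with 11 of 906 and LGALS1 with 29 of 99. With the subtraction all 10 genes were called lower between days 5 and 3, where 8 were without it, as ANXA1 and ANXA2 then passed the limit. The profile was taken from day 5 alone, and all 10 genes had a higher CPM in the barcodes than in the cells. The step could thus only lower them at day 5, so the direction of the added calls was fixed beforehand.

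Within the day 5 library, 12 clusters were found with all S100, galectin and annexin genes left out of the variable genes. Clusters 4, 5, 8, 9 and 10 were neuron-like, with 3 to 9 of the 14 neuronal markers at least 2-fold above the other cells, although cluster 8 also had the fibroblast marker POSTN among its leading genes. Clusters 2, 6 and 7 held 6, 3 and 4 fibroblast markers at that level, such as LUM and DCN in clusters 6 and 7. Clusters 6 and 7 also had the highest sums of the 10 neural progenitor markers, 4160 and 4931 CPM against 2036 and 2370 in the other cells, with RFX4 at that level in both. Their fibroblast marker sums were 612 and 532 CPM, against 391 and 438, so no cell type was named for them. ANXA2 was highest in 2 of these, with 1.21 UMIs per cell (1.16 to 1.26) in cluster 6 and 1.04 (0.966 to 1.11) in cluster 7, and had 0.731 in cluster 2. It lay between 0.318 and 0.471 in the neuron-like clusters, and in the remaining clusters at 0.324 (cluster 1), 0.345 (cluster 3), 0.698 (cluster 11) and 0.439 (cluster 12). Cluster 11 held the neural progenitor markers SOX2, FABP7 and SOX1 and no fibroblast marker at 2-fold. Its sum of the 10 neural progenitor markers was 2541 CPM, against 2557 in the other cells. Its fibroblast marker sum was 620 CPM, against 443, so no cell type was named for cluster 11 either. UMIs per cell are not adjusted for depth, and clusters differed in it. After thinning, ANXA2 was found in 18.4% (16.7 to 20.2) of cells in cluster 6, 17.4% (14.7 to 20.3) in cluster 7 and 19.4% (25 of 129 cells) in cluster 11, and in 4.46% to 9.42% of those in the neuron-like clusters. It was found in 140 of 1365 cells of cluster 1 and 60 of 546 of cluster 2, with overlapping intervals.

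ANXA1 had 0.335 UMIs per cell in cluster 2, 0.218 in cluster 6, 0.233 in cluster 7 and 0.271 (0.189 to 0.377) in cluster 11. The neuron-like clusters had 0.115 to 0.127, and clusters 1, 3 and 12, which were not neuron-like, had 0.114, 0.113 and 0.112. Both groups were thus near the 0.101 of the barcodes of 500 to under 1000 UMIs. By CPM it was highest in cluster 11, at 78.6 (54.8 to 109), and lowest in cluster 4, at 9.38. S100A6 ran from 0.105 UMIs per cell in neuron-like cluster 4 to 0.227 in cluster 6. By CPM the highest cluster stood 5.49-fold above the lowest for S100A6 (8.60 in cluster 4 and 47.2 in cluster 11) and 5.38-fold for ANXA2 (38.6 in cluster 4 and 207 in cluster 7), so these 2 genes were close in spread on that scale. LGALS3 was highest in cluster 3, which carried 3 markers of cycling cells, with 0.0466 UMIs per cell (0.0362 to 0.059). Cluster 6 had 0.0356 (0.0279 to 0.0449), and its interval and those of clusters 4, 11 and 12 overlapped that of cluster 3. The neuron-like clusters had 0.00277 to 0.0226 UMIs per cell, on 1 to 25 UMIs each. S100A4, S100A16 and LGALS1 had at most 30, 12 and 26 UMIs in any cluster, too few to order the clusters.

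At day 3, 4 clusters were found. S100A4 had 2.33 UMIs per cell (2.27 to 2.39) in cluster 2, led by RORB, and 1.20 to 1.26 in the other 3, and S100A6 and LGALS1 were also highest there, at 1.94 and 2.10. ANXA2 was lowest in that cluster, with 0.197 UMIs per cell (0.18 to 0.215), against 0.256 to 0.393 in the others. With depth taken into account the clusters were close: ANXA2 ran from 153 CPM in cluster 3 to 186 in cluster 1, and after thinning was found in 15.4% of cells in cluster 2 and 15.2% in cluster 3. S100A4 was highest in cluster 2 by CPM too, at 1858, against 492 in cluster 3. Cluster 2 had the shallowest median cell of the 4, 989 UMIs, and the lowest share of MALAT1, 12.7%, and the part of these in the difference was not tested.

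At day 0, 7 clusters were found, of which clusters 1 and 2 were shallow (median 1092 and 3006 UMIs) and low in MALAT1 (0.253% and 0.0865% of UMIs). They held 43.7% of the cells and 5.54% of the UMIs. All 10 genes had a higher CPM there than in the remaining cells, from 1.44-fold (LGALS3) to 2.93-fold (S100A11), with S100A6 at 16472 against 7789 CPM and LGALS1 at 12060 against 5268. Among the 5 other clusters the summed level of the 10 genes ran from 15380 CPM in cluster 5, led by PAPPA, to 23192 in cluster 7, led by GDF15. In cycling cluster 6, led by histone and mitosis genes, it was 19371. Leaving clusters 1 and 2 out changed no call of the 10 genes.

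Across 9536 day 0 cells thinned to 5000 UMIs, rank correlations between pairs of the 10 genes ran from 0.02 to 0.48, with a median of 0.15 over 45 pairs. The highest were S100A6 with S100A11 (0.48), LGALS1 with S100A11 (0.44) and S100A10 with S100A11 (0.44). These cells share a library and a fixed depth, and the values are a description.

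The 6 S100 genes lie on the minus strand of chromosome 1 (GENCODE 29, GRCh38) within 1648446 bases. S100A10 lies at chr1:151982915-151994390 and S100A11 at chr1:152032506-152047907. S100A6 (chr1:153534599-153536244) and S100A4 (chr1:153543613-153550136) are 7368 bases apart, and S100A16 (chr1:153606886-153613145) and S100A13 (chr1:153618787-153631360) 5641 bases. S100A3 lies within the span of S100A4 on the same strand, so counts of the 2 cannot be cleanly separated, although S100A3 itself stood at 20.8, 0.481 and 0 CPM and did not share the day 3 level of S100A4. S100A1, BX470102.1 and AL450992.1 overlap S100A13, S100A6 and S100A11 on the other strand, and use of strand in the counting was not given in the sources used here. ANXA2 and S100A11 also have pseudogene copies, so their counts are uncertain.

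LGALS1 lies at chr22:37675608-37679806 (plus strand), LGALS3 at chr14:55124110-55145413 (plus), ANXA1 at chr9:73151757-73170393 (plus) and ANXA2 at chr15:60347134-60402883 (minus). The 10 genes are short: introns sum to between 675 bases (S100A6) and 46926 bases (ANXA2), and ANXA2 alone exceeds 20000. Genes with introns under 20000 bases in all had median log2 ratios of 0.13 (day 3 over day 0), −1.15 (day 5 over day 3) and −1.11 (day 5 over day 0). Of them 26.4%, 55.1% and 51.9% were called lower, against 19.1%, 28.7% and 26.0% of all genes. The 9 short members lay at −4.46 to 3.10, −9.11 to −0.66 and −11.50 to −3.77, and the long ANXA2 had the smallest differences between day 5 and either other day.

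The genes near the S100 genes on chromosome 1 were called in both directions between days 3 and 0. Of 19 genes within 100000 bases, 7 were at 10 CPM or more in that comparison, of which 2 were higher (INTS3 and THEM4) and 2 lower (S100A2 and S100A3). Over all genes 37.6% were higher and 19.1% lower, and 7 genes are too few to set apart from those shares. INTS3, a subunit of the Integrator complex, stood at 15.4, 52.2 and 34.9 CPM, and CHTOP, an mRNA export factor next to S100A13, at 39.7, 68.4 and 33.5. ILF2 stood at 91.3, 59.3 and 45.0 CPM, THEM4 at 13.6, 31.4 and 22.6, and SNAPIN at 27.5, 17.9 and 7.86. Between days 5 and 3, 2 of 5 were lower, against 28.7% of all genes. Between days 5 and 0, 1 of 7 was higher and 4 were lower, against 49.1% and 26.0% of all genes. Whether the neighbours share their levels as a block cannot be read from so few genes.

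The rest of the 3 families was low or followed the 10 genes in part. Of 14 other S100 genes only S100A2 (17.4, 1.23 and 0.0589 CPM) and S100A3 reached 10 CPM, and both were lower at days 3 and 5 than at day 0. S100B, the glial member of the family, had 13, 2 and 16 UMIs. Of 14 other galectin genes only LGALS8, which marks damaged endosomes for autophagy, reached 10 CPM, at 28.3, 50.3 and 15.3, and was called lower between days 5 and 3.

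Of 11 other annexins 5 reached 10 CPM, with 4 lower between days 3 and 0, 3 between days 5 and 3 and 3 between days 5 and 0, and none higher. Over all genes 19.1%, 28.7% and 26.0% were called lower in these comparisons. ANXA5, used as a probe of exposed phosphatidylserine, stood at 989, 279.6 and 46.5 CPM, ANXA6 at 156, 57.6 and 28.3, and ANXA11, which links RNA granules to lysosomes, at 132, 58.5 and 6.58. ANXA7 (54.5, 25.9 and 31.4) was lower at day 3 alone, and ANXA4 (32.1, 40.2 and 22.9) was not called.

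Partners of the S100 and annexin proteins were called in both directions. Of 18 at 10 CPM or more between days 3 and 0, 6 were higher and 5 lower. Between days 5 and 3, 2 of 16 were higher and 8 lower, and between days 5 and 0, 4 of 16 were higher and 9 lower. Over all genes the shares higher and lower were 37.6% and 19.1%, 36.5% and 28.7%, and 49.1% and 26.0%. The counts between days 3 and 0 were near those shares, so nothing is read from them. The same shares stand beside the counts of the galectin partners and EF-hand genes below. PLAT, the tissue plasminogen activator that the annexin A2 and S100A10 complex gathers, stood at 82.7, 1672 and 7.17 CPM, highest at day 3 as S100A4 was. AHNAK, a giant scaffold bound by that complex, stood at 531, 163 and 10.4. Of the non-muscle myosins, MYH9, the chain S100A4 is best known to bind, stood at 343, 206 and 53.5, and MYH10 at 26.5, 77.5 and 348. CTSB, a lysosomal protease found with annexin A2 at the cell surface, stood at 346, 109.5 and 44.5, and SYT1, the calcium sensor of synaptic vesicles and a partner in S100A13 release, at 66.0 and 1182 on days 0 and 5, with 375 UMIs on day 3.

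Among 23 galectin ligands and partners, 1 of 16 at 10 CPM was higher and 4 lower between days 3 and 0, 6 of 20 higher and 5 lower between days 5 and 3, and 6 of 20 higher and 7 lower between days 5 and 0. FN1, or fibronectin, stood at 1589, 1631 and 107 CPM and CD44, the hyaluronan receptor, at 1165, 284 and 24.2. ITGB1, the common integrin chain, stood at 1472, 406 and 299, and CD63, a tetraspanin of late endosomes, at 1186, 610.3 and 479. GLG1, a Golgi glycoprotein, stood at 104, 167 and 349.6, and BSG (244, 168 and 180.4) was not called.

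Of 17 neuronal calcium sensors and buffers listed, another group of mostly EF-hand genes, 10 did not reach 10 CPM in any library. NCALD, KCNIP4, KCNIP1, CALN1 and VSNL1 reached it at day 5 alone, so their direction was fixed by that limit. Of 7 such genes at 10 CPM or more between days 5 and 3, 6 were higher and none lower, against 36.5% and 28.7% of all genes. Of 7 between days 5 and 0, 5 were higher and 1 lower, against 49.1% and 26.0%. Between days 3 and 0 both of 2 were lower, against 19.1%. NCALD, or neurocalcin, stood at 0.219, 0.0534 and 540.5 CPM, KCNIP4, a potassium channel subunit, at 0, 2.03 and 155, and CALN1 at 0.00406, 0.267 and 41.4. KCNIP1 had no UMI at days 0 and 3 and stood at 19.5 CPM at day 5. HPCAL1 (49.0, 7.38 and 36.4) and NCS1 (99.3, 15.4 and 26.1) were highest at day 0.

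Of 20 widely expressed EF-hand genes 15 were lower and none higher between days 3 and 0, 8 lower and 1 higher between days 5 and 3, and 16 lower and 1 higher between days 5 and 0, with median log2 ratios of −1.42, −0.33 and −2.14. CALM2, a calmodulin gene, stood at 1258, 376 and 319.9 CPM. SPARC, a secreted matrix protein, stood at 1100, 215 and 265, CALU at 1060, 221 and 244, and CAPN2, a calpain protease, at 447, 84.7 and 30.8. RCN2 (129, 125 and 317) was the 1 called higher at day 5.

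Over the 23 clusters of the 3 libraries, the genes with the most similar levels were found by Pearson correlation of log2(CPM + 1), a description over points that share libraries. The 5 most like LGALS1 were MT2A (0.996), C4orf3 (0.992), RAC2 (0.992), NUPR1 (0.991) and RPS27L (0.991), and for S100A10 they were NOP10 (0.996), AURKAIP1 (0.995), AP2S1 (0.995), SEC61B (0.994) and DRAP1 (0.994). For S100A4 they were TBX2-AS1 (0.977), COLEC10 (0.974), CASP1 (0.974), TUBA4A (0.973) and PGK1 (0.973). For ANXA2 they were TPM1 (0.980), ANXA1 (0.979), PRDX6 (0.974), SEC61B (0.974) and VAMP5 (0.972). Among the 10 genes S100A4 had the lowest correlations, from 0.59 with ANXA1. With Spearman's rho none of the 5 was shared for LGALS1 and S100A4 and 2 for S100A10 and ANXA2, so the named neighbours depend on the measure.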

How the data were processed

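Per the labels' protocols, reads came from 10x Genomics Chromium libraries, and per the submitters' processing notes Cell Ranger 4.0.0 and the human build hg38 (GRCh38) were used. The deposited matrices hold UMI counts per gene and barcode, with no normalization, and day 5 was deposited unfiltered (2037119 barcodes). The protocols name an accessibility kit for all 3 libraries beside the gene counts deposited; treatment of introns and strand was not given in the sources used here.

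Day 5 barcodes were called as cells above a UMI threshold set from the 10000 deepest barcodes (their percentile 99 divided by 10, giving 2155 UMIs and 9304 barcodes). Cells needed 500 UMIs, 300 genes and at most 20% mitochondrial UMIs; no doublet caller was run and doublets were kept. UMIs were summed per library over 32732 shared genes; ratios used a floor of 3 UMIs per library. Intervals are exact Poisson or Clopper-Pearson binomial at 95%. Each library was clustered alone (scanpy 1.11.5, igraph 0.11.9) by Leiden at resolution 0.5 on 15 neighbours in 30 components of 2000 variable genes, without genes of these families. The counting rule was tested on simulated data. Named genes were the 10 members, up to 6 of each list by highest CPM (at least 10) and the 5 most correlated of 4 members; S100B, DCX and cluster leaders were added after their values were seen. A gene that this rule would name is not reported here. The members, lists and markers were chosen with earlier results of these data known. Alternatives were other cell calls, filters, scalings (TMM in edgeR 4.0.16, R 4.3.3), thinning and clustering.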

Additional observations from a re-analysis of the deposited data

How the results depend on the processing

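The counts of the 10 genes called higher or lower were recomputed under other cell calls, filters, scalings, CPM limits, a 3-fold limit, thinning, mean CPM per cell and subtraction of the shallow barcodes' profile, and under day 0 without its low-MALAT1 clusters, the last added after seeing the data. All 76 such counts lay within 1.5 times of those reported, with 8 lower between days 5 and 3 except 7 with a limit of 50 CPM and 10 after subtraction. No log2 ratio changed sign. S100A4 between days 3 and 0 ran from 1.91 to 3.22, ANXA1 between days 5 and 3 from −2.44 to −0.17 and ANXA2 from −1.34 to −0.29. Of 290 recomputed log2 ratios 178 were counted as moved, and the cause was not tested. That count takes in every ratio without the low-MALAT1 clusters of day 0, whether or not it lay within counting error. For LGALS3 between days 3 and 0 that ratio was −2.18, inside the interval of −2.30 to −2.14. It was also inside for S100A16 (−4.42, within −4.62 to −4.31) and ANXA1 (−3.06, within −3.21 to −3.02). The ratios counted as moved in the other settings lay beyond counting error. All 90 shares of cells recomputed at 500 UMIs, at 2000 UMIs or without thinning lay outside the interval of the share at 1000 UMIs. Among all genes called between days 3 and 0, the share higher was 66.3% by library totals, 23.8% by TMM and 25.4% by the median of ratios; between days 5 and 0 it was 65.4%, 43.1% and 43.5%. No paired analysis was possible because each group is 1 library. Depth limits S100A4, S100A16 and LGALS1 at day 5, with 90, 59 and 99 UMIs.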
